A study of Mus musculus with 16 samples.

Results

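Enteroendocrine cells are single hormone-secreting cells scattered through the gut epithelium, and 10 genes that they use were followed here in mouse terminal ileum: the hormone genes Gcg, Pyy, Cck, Nts, Sct, Gip and Sst, the serotonin-synthesis gene Tph1, and the chromogranin genes Chga and Chgb. A row of the deposited transcript table belonged to a member when its transcript name without the last hyphenated part was the gene symbol. All 10 were among the 23299 genes of the table, and all 10 passed the filter of an RPKM (reads per kilobase of transcript, scaled to library size) of at least 1 in at least 2 libraries, which left 19042 genes for testing.

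Ileal RNA was sequenced from Tas1r3+/+ (wild-type, WT) littermates and Tas1r3-/- (knockout, KO) mice that had received a normal diet (ND) with plain water or a Western diet (WD) for 10 weeks from young adulthood. The WD was a 60% fat feed given with a 30% sucrose solution to drink. The knockout carries the Tas1r3tm1Csz allele in every cell, and the line had been backcrossed to C57BL/6. Each of the 4 groups was labelled as 2 males and 2 females, 16 samples in all, and nothing in the labels says that they were pooled. In ND-fed Tas1r3-/- mice both columns labelled female equalled weighted means of the male ones, except for 17 and 18 of 59258 transcripts, none of them of a member, so they were left out. In WD-fed Tas1r3-/- mice the columns labelled female depended on each other, and their mean was used as 1 library. This left 13 libraries: 4 of ND-fed Tas1r3+/+ mice, 2 (both male) of ND-fed Tas1r3-/- mice, 4 of WD-fed Tas1r3+/+ mice and 3 of WD-fed Tas1r3-/- mice.

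Enteroendocrine cells sense nutrients in the lumen with receptors and transporters on their apical side and release peptide hormones or serotonin toward blood vessels and nerve endings. Peptide hormones are cut from prohormones by prohormone convertases inside secretory granules, whose matrix is built from chromogranins. In the ileum the L cell is the best known type: it makes glucagon-like peptides from the Gcg prohormone, peptide YY from Pyy and, in many cells, neurotensin from Nts. Tas1r3 is a subunit of the sweet and the umami taste receptors, and taste signalling has been linked to the release of glucagon-like peptide 1. In RNA from whole tissue, fewer enteroendocrine cells and less hormone mRNA per cell cannot be told apart.

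The depth implied by the values was 7003231 to 12384194 reads per library. On a transcript of 1 kb, 1 read was worth an RPKM of 0.0692 to 0.139. Tas1r3 was at 1.80 to 6.27 RPKM in the Tas1r3+/+ libraries and at 0.00452 or below in the Tas1r3-/- libraries, although 3 of its 8 Tas1r3+/+ values carried more digits than the quantification wrote elsewhere. All 5 ileal enterocyte markers and all 9 pan-epithelial markers had a mean of at least 1 RPKM. The sum of the ileal enterocyte markers ran from 923 (WD-fed Tas1r3-/- male 1) to 10428 (WD-fed Tas1r3+/+ female 2) scaled RPKM. Of 6 colon markers 2 were listed. Their sum was 80.8 and 76.1 in ND-fed Tas1r3+/+ male 2 and female 2, and at most 12.1 in the other libraries. The part of gut region in the member values was not tested. The tissue pieces differed in their layers: the sum of 6 smooth muscle markers ran from 811 (WD-fed Tas1r3+/+ female 2) to 3784 (WD-fed Tas1r3-/- male 1) scaled RPKM, and that of the enteric neuron markers from 38.2 to 322, with the same library lowest and WD-fed Tas1r3+/+ female 1 highest. The sum of all values was 817011 to 819916 in the ND libraries and 542371 to 685274 in the WD libraries, so values were rescaled by a trimmed mean of log ratios before comparison. Levels below are these scaled RPKM unless stated otherwise.

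Promoter sequences were taken from RefSeq (GRCm38.p6), which held a start site for all 10 members. The stretch of 150 bases before the start site is shown for the genes on which the results turn: Gcg and Cck, whose levels differed most between the groups, Sst, which followed the muscle content of the tissue, and Chga and Chgb, which varied together. Capitals mark every match, on either strand, to TATAAA (the TATA box), CAGATG (an E-box), TGACG (the shorter form of the cAMP response element) or its full form TGACGTCA, which contains it, TGTTTAC (a forkhead motif) and GGGCGG (a GC box). The stretches lie at chr2:62483654-62483803 (minus strand) for Gcg, chr9:121495695-121495844 (minus) for Cck, chr16:23890845-23890994 (minus) for Sst, chr12:102554791-102554940 (plus) for Chga and chr2:132781492-132781641 (plus) for Chgb.
Gcg: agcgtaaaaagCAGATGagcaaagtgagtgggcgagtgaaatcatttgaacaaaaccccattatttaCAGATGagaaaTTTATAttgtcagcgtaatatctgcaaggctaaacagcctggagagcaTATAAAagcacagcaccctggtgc
Cck: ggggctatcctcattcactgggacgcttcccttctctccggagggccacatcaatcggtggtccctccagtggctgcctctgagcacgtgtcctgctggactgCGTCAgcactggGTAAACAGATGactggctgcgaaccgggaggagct
Sst: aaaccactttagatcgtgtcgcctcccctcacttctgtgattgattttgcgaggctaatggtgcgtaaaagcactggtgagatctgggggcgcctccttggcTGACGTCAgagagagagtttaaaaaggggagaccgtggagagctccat
Chga: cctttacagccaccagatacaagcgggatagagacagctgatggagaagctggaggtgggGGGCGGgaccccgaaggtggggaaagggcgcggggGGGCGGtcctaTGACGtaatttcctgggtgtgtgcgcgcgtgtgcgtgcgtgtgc
Chgb: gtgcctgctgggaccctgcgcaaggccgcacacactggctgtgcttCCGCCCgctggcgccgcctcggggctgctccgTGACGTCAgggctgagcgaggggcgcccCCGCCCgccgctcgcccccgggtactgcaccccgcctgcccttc

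Gcg held TATAAA at position -24 from its start site, the same letters on the other strand at -72, and CAGATG at positions -139 and -83. In Cck the forkhead match and CAGATG overlapped, with TGACG on the other strand at position -47. The full TGACGTCA was found in the promoters of Sst and Chgb, 2 of the 10 members, and in 1.79% of 32851 mouse promoters of the same 300 bases. The shorter TGACG was found in 6 of 10 members (Cck, Nts, Sst, Tph1, Chga and Chgb) and in 20.8% of all promoters. GGGCGG was found in 4 of 10 members (35.7% of all promoters) and TATAAA in 3 (13.6%). On the strand of the gene TATAAA lay at position -24 in Gcg, -28 in Sct and 5 in Chga. The match in Chga is after the start site and outside the stretch shown. CAGATG was found in 3 (17.2%) and TGTTTAC in 1 (3.65%). Pyy and Tph1 each had an additional start site searched, whereas the shares count single promoters. These are matches of letters in a window and were not tested as binding sites.

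The members spanned a wide range of levels, which RPKM allows to be compared between genes. Secretin (Sct), which drives bicarbonate secretion from the pancreas, had the highest median over the 13 libraries, 67.6, with a range of 29.9 to 138. Pyy followed with 50.7 (22.3 to 71.3), then Sst with 40.5 (24.4 to 86.3), Nts with 35.9 (15.0 to 110) and Gcg with 29.6 (16.2 to 97.8). The ranges of these 5 overlapped, so the order of neighbours is not fixed by these libraries. The order also depends on the transcripts summed. Sct-203, annotated as a retained intron, carried 42.4% of the summed RPKM of Sct, and the retained intron Pyy-203 carried 27.1% of that of Pyy. As deposited, the coding Sct-201 had a mean of 44.7 RPKM, below the 50.2 of Sst-201. Chgb (15.5) and Chga (15.4) had nearly the same median. Cck had a median of 4.43, Gip 1.43 and Tph1 0.892, and these last 3 rested on medians of 28.0, 7.77 and 28.0 reads per library, against 253 to 571 reads for the other 7. The L cell genes Pyy, Nts and Gcg were thus among the 5 most abundant members, and Gip, the hormone of duodenal K cells, was among the 3 least abundant.

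**Figure D1:**
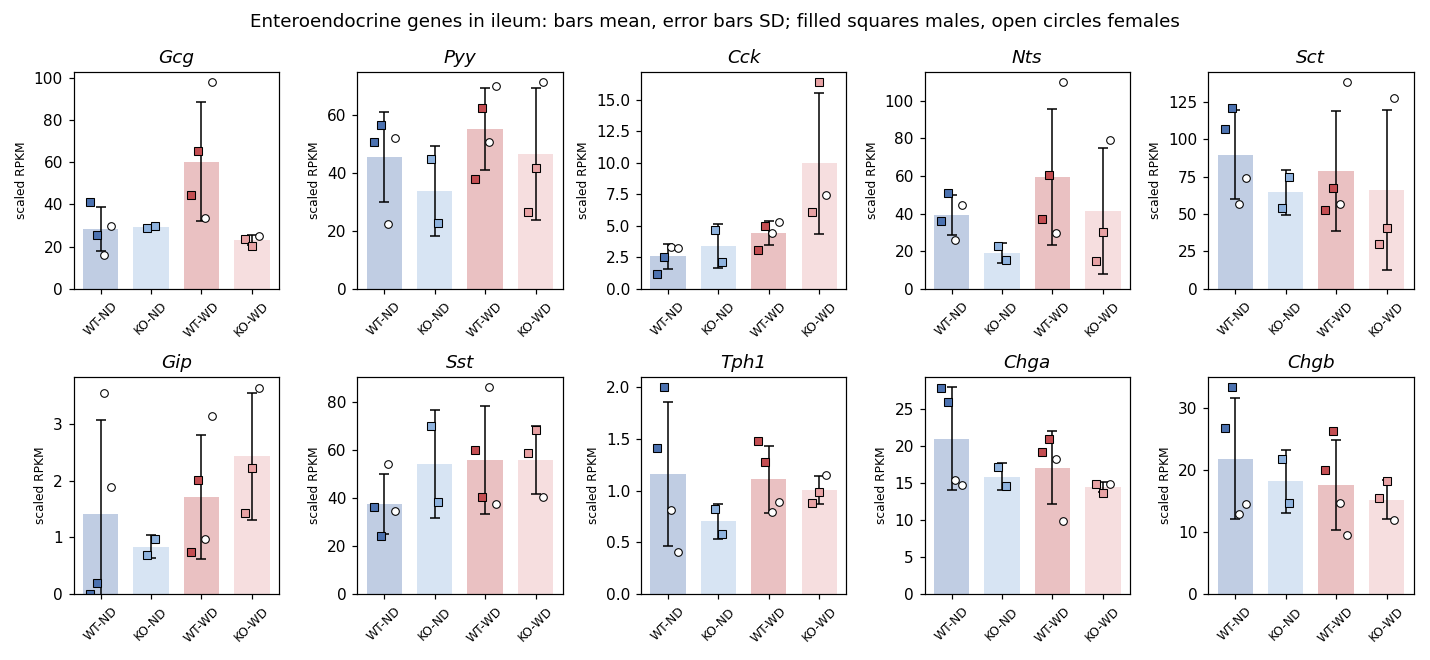
Scaled RPKM (y axis, from 0, one scale per gene) of the 10 members in the 4 groups (x axis); bars give the mean, error bars the SD, filled squares male and open circles female libraries, 13 libraries in all. Gcg reaches 33.3 to 97.8 in WD-fed Tas1r3+/+ libraries and stays at 20.2 to 25.2 in WD-fed Tas1r3-/- libraries, and Chgb is higher in males than in females within both Tas1r3+/+ groups.

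Gcg, the proglucagon gene, had the largest log2 fold changes of the members for the WD in Tas1r3+/+ mice and between the genotypes on the WD. Its level in ND-fed Tas1r3+/+ mice was 41.3 and 25.6 in males 1 and 2 and 16.2 and 29.6 in females 1 and 2, with a mean of 28.2 ± 10.4 (SD, n = 4). In WD-fed Tas1r3+/+ mice it was 44.6 and 65.2 in the males and 33.3 and 97.8 in the females, with a mean of 60.2 ± 28.3 (SD, n = 4). Only the comparison of WD-fed female 1 with ND-fed male 1 went the other way, so the WD library was the higher in 15 of 16 pairs. The log2 fold change on the WD was 1.04 (SE 0.32; 95% interval 0.34 to 1.74), with an unadjusted p of 0.00692 in limma and an adjusted p of 0.168, which did not pass the threshold of 0.01. The two-sided exact permutation test gave p = 0.0571, where 0.0286 is the smallest that 4 against 4 libraries allow.

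In Tas1r3-/- mice Gcg was at 28.8 and 29.7 in the ND-fed males, with a mean of 29.2 ± 0.659 (SD, n = 2). It was at 23.8 and 20.2 in WD-fed males 1 and 2 and at 25.2 in the averaged female library, with a mean of 23.1 ± 2.56 (SD, n = 3). The 3 WD-fed values all lay below the pair of ND-fed values, at a log2 fold change of -0.34 (SE 0.42; limma adjusted p = 0.999), and 20.9% of all genes had groups that did not overlap in this small comparison. All 3 values of WD-fed Tas1r3-/- mice also lay below all 4 of WD-fed Tas1r3+/+ mice, which was the case in one direction or the other for 2.84% of all genes tested. The log2 fold change between the genotypes on the WD was -1.25 (SE 0.35; 95% interval -2.01 to -0.50), an estimated level 2.39 times higher with Tas1r3 than without it. Its unadjusted limma p was 0.00347, place 46 of 19042 genes, and its adjusted p was 1.00. The exact permutation p was 0.0571, the smallest that 3 against 4 libraries allow. On the ND the genotypes did not separate for Gcg (log2 fold change 0.13, SE 0.40, 95% interval -0.73 to 0.99).

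The diet effects on Gcg in the genotypes differed by -1.38 on the log2 scale (SE 0.53; interaction term, unadjusted p = 0.0218 and adjusted p = 1.00 in limma). Of the 19042 genes, 1.43% had an unadjusted p under 0.05 for this term, and Gcg was the only one of the 10 members among them. Without ND-fed Tas1r3-/- male 1 the term was -1.41 with an unadjusted p of 0.0520, and without male 2 it was -1.36 with one of 0.0587, so its size stayed nearly the same and its p passed 0.05 when that group was down to 1 library. Of the 3 Gcg transcripts, Gcg-201 (6 exons, 1088 bases) carried 80.7% of the summed RPKM. Gcg-202 held more digits than usual in WD-fed Tas1r3+/+ females 1 and 2 (1.03 and 1.08 RPKM as deposited), and without such transcripts the difference between the genotypes on the WD was -1.22 (limma adjusted p = 1.00).

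Gcg was also compared with other enteroendocrine genes inside each library, which needs no scaling. Per unit of Chga, Gcg amounted to 1.83 to 9.86 in WD-fed Tas1r3+/+ libraries and to 1.48 to 1.70 in WD-fed Tas1r3-/- libraries. Per unit of Chgb it was 2.23 to 10.3 against 1.11 to 2.11, so that neither ratio overlapped between the genotypes on the WD. The level of Gcg alone did not overlap there either, as for 2.84% of all genes. The share for ratios of this kind was not counted. The upper end of both ratios came from WD-fed Tas1r3+/+ female 2, which had the lowest Chga and Chgb levels of all libraries. Per unit of Pyy, made by the same cells, the ratio was 0.658 to 1.40 in WD-fed Tas1r3+/+ and 0.354 to 0.903 in WD-fed Tas1r3-/- libraries, and these ranges overlapped. The ratios to Nts (0.890 to 1.21 against 0.318 to 1.59) and to Sct (0.587 to 0.965 against 0.198 to 0.797) overlapped too, so 3 of the 5 ratios did. The difference in Gcg between the genotypes was -0.98 on the log2 scale without that female library (limma adjusted p = 1.00).

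Pyy, whose product slows gut transit and reduces appetite, had a mean of 45.4 ± 15.6 (SD, n = 4) on the ND and of 55.2 ± 14.02 (SD, n = 4) on the WD in Tas1r3+/+ libraries, and of 33.6 ± 15.6 (n = 2) and 46.5 ± 22.8 (n = 3) in the Tas1r3-/- libraries. ND-fed Tas1r3+/+ female 1, at 22.3, lay apart from the other 3 of its group, which were at 50.8 to 56.4. The 4 log2 fold changes of Pyy lay between -0.42 and 0.42, each within 1 SE of 0, and all groups overlapped.

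Nts, whose product neurotensin inhibits gastric emptying and aids fat absorption, was at 25.9 to 50.7 in ND-fed Tas1r3+/+ libraries and at 22.6 and 15.3 in ND-fed Tas1r3-/- males. These groups did not overlap, as for 22% of all genes, and the log2 fold change was -1.01 (SE 0.59; limma unadjusted p = 0.112). On the WD its values were 37.0, 60.5, 29.8 and 110 in Tas1r3+/+ males 1 and 2 and females 1 and 2, against 15.0, 30.1 and 79.2 in Tas1r3-/- male 1, male 2 and the female library. The spread within the WD-fed groups was larger than the difference of their means, 59.3 ± 36.2 (SD, n = 4) with Tas1r3 and 41.4 ± 33.6 (SD, n = 3) without it.

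Cck encodes cholecystokinin, which empties the gallbladder and is made mainly in the upper small intestine. Its values in ND-fed Tas1r3+/+ libraries were 1.18 and 2.55 in the males and 3.28 and 3.25 in the females, and in WD-fed Tas1r3+/+ libraries 3.08, 4.97, 4.43 and 5.28. ND-fed Tas1r3-/- males were at 4.66 and 2.17, whereas WD-fed Tas1r3-/- male 1, male 2 and the female library were at 6.07, 16.4 and 7.43. The 3 WD-fed Tas1r3-/- values were above every value of the other groups. The share of all genes with 1 group so set apart was not counted. For 2 groups at a time, 2.84% of all genes did not overlap between the genotypes on the WD. For the WD in Tas1r3-/- mice the share was 20.9%. On the WD, Cck was one of 3 members, with Gip and Sst, whose log2 fold change between the genotypes had the sign opposite to that of Gcg, with a mean of 9.96 ± 5.61 (SD, n = 3) in the knockout and one of 4.44 ± 0.973 (SD, n = 4) in the wild type.

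The log2 fold change of Cck between the genotypes on the WD was 0.98 (SE 0.38; unadjusted p = 0.0246, adjusted p = 1.00 in limma; exact permutation p = 0.0571). It was 0.57 without Tas1r3-/- male 2, the library at 16.4, with an unadjusted limma p of 0.158, and 0.84 without Tas1r3+/+ male 1, the lowest of its group, with one of 0.0667. The diet difference in Tas1r3-/- mice was 1.37 (SE 0.46; 95% interval 0.37 to 2.36; limma adjusted p = 0.858), with an unadjusted p of 0.0109. That in Tas1r3+/+ mice was 0.73 (SE 0.35; limma adjusted p = 0.341). Without ND-fed Tas1r3-/- male 2 the former was 0.89, with an unadjusted limma p of 0.145. The interaction was 0.63 (SE 0.58; limma adjusted p = 1.00), so the diet effects were not shown to differ between the genotypes. Between 7.995 and 132 reads stood behind these values. The summed markers of the proximal small intestine, of which 7 of 8 were listed and 3 had a mean of at least 1 RPKM, were 180 to 613 in WD-fed Tas1r3+/+ and 38.3 to 134 in WD-fed Tas1r3-/- libraries, and their part in the Cck values was not tested.

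Gip encodes the glucose-dependent insulinotropic peptide of the proximal gut. It was listed at essentially 0 in ND-fed Tas1r3+/+ male 1 and at 0.194 in male 2, but at 3.54 and 1.89 in the females of that group. In WD-fed Tas1r3+/+ libraries it was 0.750, 2.02, 0.977 and 3.13, in ND-fed Tas1r3-/- males 0.688 and 0.976, and in WD-fed Tas1r3-/- libraries 1.43, 2.22 and 3.63. At most 29.1 reads were behind a value, and every 95% interval of a fold change of Gip included 0 on the log2 scale. The 3 WD-fed values of Tas1r3-/- mice lay above both ND-fed values, and 20.9% of all genes had groups that did not overlap in this comparison.

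Sct was at 107, 121, 56.9 and 73.9 in the ND-fed Tas1r3+/+ libraries and at 52.9, 67.6, 56.8 and 138 in the WD-fed ones. ND-fed Tas1r3-/- males were at 54.0 and 75.1 and WD-fed Tas1r3-/- libraries at 29.9, 40.8 and 127. The averaged female library of the last group and female 2 of the WD-fed Tas1r3+/+ group were the highest of their groups. WD-fed Tas1r3+/+ female 1 lay between the males of its group. The 4 log2 fold changes were -0.24 to -0.43 with SEs of 0.44 to 0.56, and all groups overlapped.

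Sst encodes somatostatin, the general brake on hormone release, made by D cells of the epithelium and also by enteric neurons. Its values were 36.4, 24.4, 54.4 and 34.6 in ND-fed and 60.0, 40.5, 86.3 and 37.6 in WD-fed Tas1r3+/+ libraries. In Tas1r3-/- libraries they were 70.3 and 38.4 on the ND and 58.8, 68.4 and 40.4 on the WD. No group separated from another, and the largest log2 fold change, 0.55 for the WD in Tas1r3+/+ mice, had an SE of 0.32 (limma adjusted p = 0.424). Whatever the group, Sst was high where muscle was high: the 6 libraries with summed smooth muscle markers above 2000 had Sst at 54.4 or above, and the other 7 had it at 40.5 or below. Pearson's r between the log2 values of Sst and of the muscle sum was 0.87 over the 13 libraries, and with the summed enteric neuron markers it was 0.80. Sct went the other way, with r = -0.87 for muscle and 0.82 for the pan-epithelial markers, and Nts had r = -0.75 for muscle. For Gcg the value was -0.47. The points share scaling and the proportions of tissue layers, so these correlations are descriptions, and the part of tissue content in the differences between groups was not tested. The muscle sum was 811 to 2936 in WD-fed Tas1r3+/+ and 1092 to 3784 in WD-fed Tas1r3-/- libraries, and Gcg in the latter was 25.2 in the library with the least muscle, 20.2 in the next and 23.8 in the one with the most. In the 4 WD-fed Tas1r3+/+ libraries Gcg was lower with each step up in muscle: 97.8 at a sum of 811, 65.2 at 1038, 44.6 at 2586 and 33.3 at 2936.

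**Figure D2:**
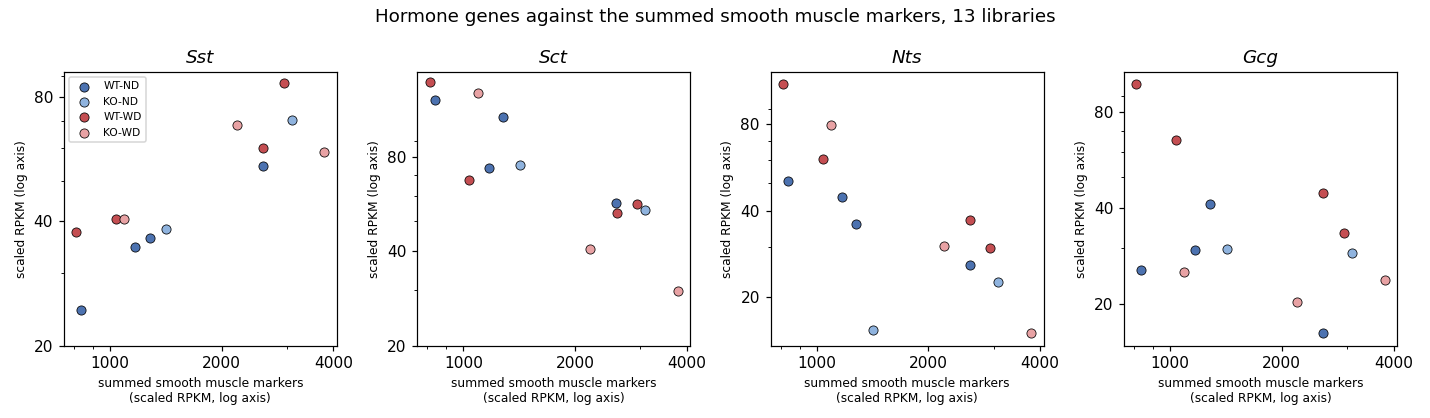
Scaled RPKM of Sst, Sct, Nts and Gcg (y axis, log) against the summed scaled RPKM of 6 smooth muscle markers (x axis, log), 1 point per library, coloured by group. Sst is higher and Sct and Nts are lower where muscle content is higher (r = 0.87, -0.87 and -0.75 on log2 values, n = 13), while the 3 points of WD-fed Tas1r3-/- mice lie level for Gcg at 20.2 to 25.2.

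Tph1, the rate-limiting enzyme of serotonin synthesis in enterochromaffin cells, was low in every library. On the ND and WD it had means of 1.16 ± 0.696 (SD, n = 4) and 1.11 ± 0.324 (SD, n = 4) in Tas1r3+/+ libraries, and of 0.705 ± 0.172 (n = 2) and 1.01 ± 0.134 (n = 3) in Tas1r3-/- libraries. The Tas1r3-/- groups did not overlap (0.583 and 0.826 against 0.885 to 1.15), as for 20.9% of all genes, at a log2 fold change of 0.33 with an SE of 0.39. Mast cells also express Tph1; of 9 mast cell markers 4 were listed and 2 had a mean of at least 1 RPKM, with sums of 8.04 to 24.1 over the libraries, and their part was not tested.

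Chga and Chgb encode the granins that pack the granules of most enteroendocrine cells and also of neurons, and they serve as general markers of these cells. Chga had a mean of 21.0 ± 6.92 (SD, n = 4) on the ND and of 17.1 ± 4.93 (SD, n = 4) on the WD in Tas1r3+/+ libraries, and of 15.9 ± 1.81 (n = 2) and 14.5 ± 0.724 (n = 3) in Tas1r3-/- libraries. Chgb was at 21.9 ± 9.83, 17.6 ± 7.26, 18.2 ± 5.02 and 15.2 ± 3.15 in the same order. In the main fit none of the 8 log2 fold changes of the granins was beyond -0.34, and the groups overlapped in all 4 comparisons. The ND-fed Tas1r3-/- libraries were both male. Among ND-fed males, Chga was 27.9 and 26.0 with Tas1r3 against 17.1 and 14.6 without it. Chgb was 26.7 and 33.3 against 21.7 and 14.6. With males only, the Chga log2 fold change between the genotypes on the ND was -0.72. In that fit 1647 of 18460 genes had an unadjusted limma p under 0.05 for this comparison, and 0 were called. The share of all genes that separate among ND-fed males was not counted. Over all settings Chga between the genotypes on the ND had an unadjusted limma p under 0.05 in 3 of 15 alternatives and 0 of 13 leave-outs.

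The granins were also compared between the sexes, after the values had been seen. In ND-fed Tas1r3+/+ libraries Chgb was 26.7 and 33.3 in males against 12.9 and 14.5 in females, and in WD-fed ones 20.0 and 26.4 against 14.6 and 9.46. In WD-fed Tas1r3-/- libraries it was 15.5 and 18.2 in males and 11.96 in the female library. With the 4 groups and sex in 1 limma model, the male minus female difference of Chgb was 0.88 on the log2 scale (SE 0.18; 95% interval 0.50 to 1.27; unadjusted p = 3.33e-04, adjusted p = 0.0539). That of Chga was 0.50 (SE 0.18; unadjusted p = 0.0171, adjusted p = 0.164), with 27.9 and 26.0 in ND-fed Tas1r3+/+ males against 15.4 and 14.8 in females. In WD-fed Tas1r3+/+ libraries Chga was 19.3 and 21.0 against 18.3 and 9.92, but in WD-fed Tas1r3-/- libraries the female library, at 14.85, lay between the males at 13.63 and 14.91, a difference of -0.057. Tph1 had a difference of 0.51 (SE 0.22; unadjusted p = 0.0438 in limma) in the same direction, and Gip one of -1.26 (SE 0.39; unadjusted p = 0.00802 in limma), higher in females.

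No member passed the adjusted threshold for sex, which 0.042% of all genes did. The unadjusted p was under 0.05 in 4 of 10 members and in 19.3% of all genes, and it was 0.302 to 0.688 in the other 6 members. With each library left out in turn, 2 to 4 members remained under 0.05 without adjustment; the 2 were found without ND-fed Tas1r3+/+ male 1, where the p of Chga was 0.0508. Beside this, the summed B and T cell markers were 7.19 and 11.8 in ND-fed Tas1r3+/+ males and 54.7 and 17.4 in females. In WD-fed Tas1r3+/+ libraries the sum was 25.5 and 21.4 in males against 22.4 and 45.1 in females. In WD-fed Tas1r3-/- libraries it was 39.5 and 14.3 against 32.4, so the sexes overlapped in both WD-fed groups. The r of this sum with Chgb over the 13 libraries was -0.75 and with Gip 0.78. The part of lymphoid tissue in the sex differences of the members was not tested.

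Counted over the members, no comparison had a call, for which the Benjamini-Hochberg adjusted p of limma had to be under 0.01 and the level to differ by 2-fold or more. The share of all genes called was 0.00525% for the WD in Tas1r3+/+ mice, 0% for the WD in Tas1r3-/- mice, 0% for the genotypes on the ND, 0.0105% for the genotypes on the WD and 0% for the interaction, so members without a call are what most genes showed. At an unadjusted p under 0.05, the WD in Tas1r3+/+ mice had 1 member (Gcg) against 15.5% of all genes, and the WD in Tas1r3-/- mice 1 member (Cck) against 5.49%. The genotypes had no member on the ND against 4.73% of all genes, and 2 members on the WD (Gcg and Cck) against 2.65%. Groups that did not overlap were found for 0 members for the WD in Tas1r3+/+ mice (10.5% of all genes), 4 for the WD in Tas1r3-/- mice (Gcg, Cck, Gip and Tph1; 20.9%), 1 for the genotypes on the ND (Nts; 22%) and 2 for the genotypes on the WD (Gcg and Cck; 2.84%).

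The median log2 fold change of the 10 members was 0.39 for the WD in Tas1r3+/+ mice and 0.20 in Tas1r3-/- mice, beside 0.02 and 0.00 over all genes. It was -0.26 for the genotypes on the ND and -0.16 on the WD, beside 0.01 and -0.01. The comparisons share groups, so these medians are not independent of each other.

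**Figure D3:**
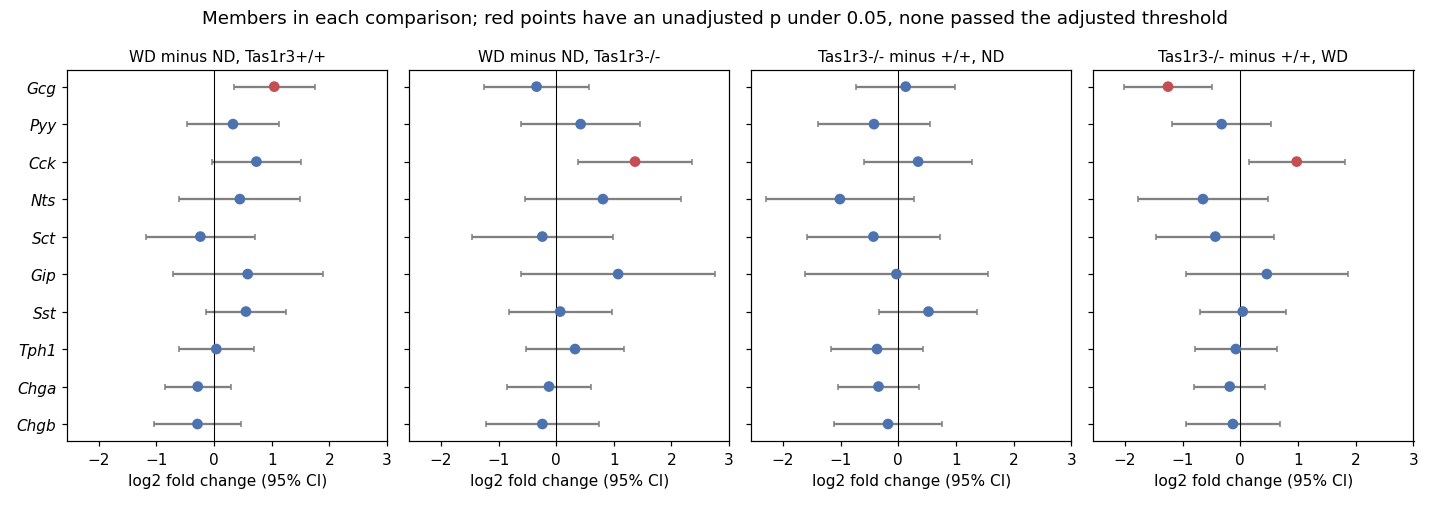
Log2 fold change (x axis) of each member (rows) with its 95% confidence interval from limma in the 4 comparisons (panels). Red points mark an unadjusted p under 0.05: Gcg (1.04) for the WD in Tas1r3+/+ mice, Cck (1.37) for the WD in Tas1r3-/- mice, and Gcg (-1.25) and Cck (0.98) between the genotypes on the WD.

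The share of each gene in the summed RPKM of the 7 peptide hormone genes describes the mix of hormone messages within a library. All transcripts of a gene were summed, retained introns of Sct and Pyy included. On that sum Sct took the largest mean share, 29.1%, followed by Sst with 21.3%, Pyy with 17.8%, Nts with 15.3% and Gcg with 13.8%. Cck had 2.06% and Gip 0.661%. Gcg made up 8.87% to 15.1% of the mix in ND-fed and 12.7% to 21.5% in WD-fed Tas1r3+/+ libraries. In Tas1r3-/- libraries it was 12.8% to 16.1% on the ND and 7.11% to 14.8% on the WD. Sct took 30.8% to 43.1% in ND-fed and 21.7% to 29.9% in WD-fed Tas1r3+/+ libraries, without overlap on this sum. The retained intron Sct-203 carried 42.4% of the summed RPKM of Sct, and shares without it were not computed. The scaled levels of Sct overlapped between these groups, with a log2 fold change of -0.24, or 0.023 with the highest transcript of each gene. How often the share of a gene separates in this way was not counted. Cck took 2.09% to 7.45% in WD-fed Tas1r3-/- libraries and at most 2.07% elsewhere. Sst took between 8.13% and 32.9% in WD-fed Tas1r3+/+ libraries alone. Shares of a mix depend on each other, so one cannot move alone.

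**Figure D4:**
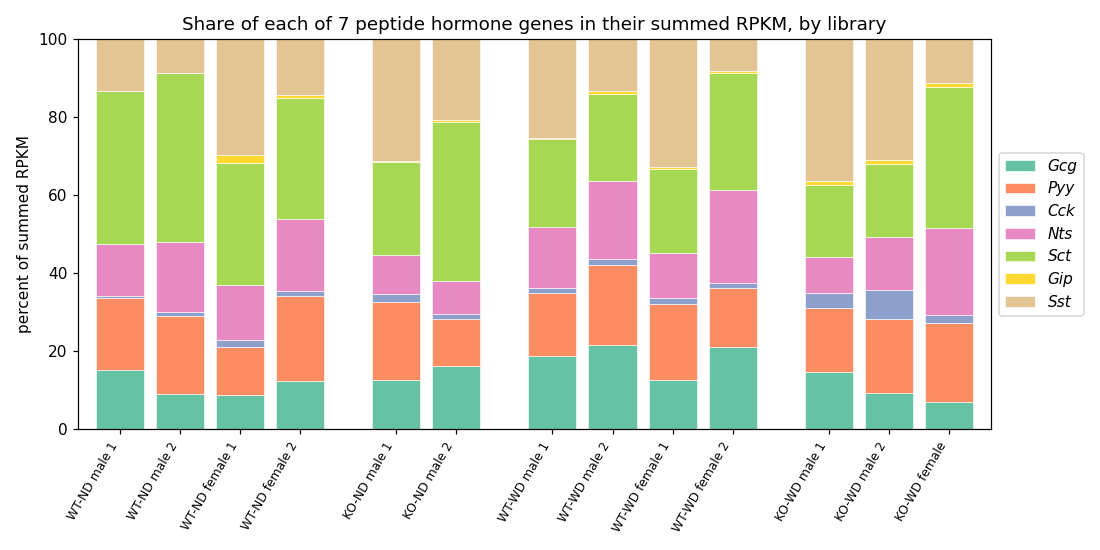
Percent of the summed RPKM of 7 peptide hormone genes (y axis) taken by each gene (colours) in each of the 13 libraries (x axis). Sst and Sct vary most over the 13 libraries, Gcg takes 12.7% to 21.5% in WD-fed Tas1r3+/+ libraries, and Cck reaches 7.45% in WD-fed Tas1r3-/- male 2.

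The members did not vary as 1 block. Over the 45 pairs of members, Pearson's r of the scaled log2 values across the 13 libraries had a median of 0.01, and 22 pairs were negative. Chga and Chgb varied most alike (r = 0.88), followed by Pyy and Nts (r = 0.86) and by Nts and Sct (r = 0.74). These pairs had r = 0.88, 0.83 and 0.87 when each library was taken as its deviation from the mean of its group. Gip and Chga were the least alike (r = -0.79). For each member the 3 genes with the highest r among all genes tested were also listed, as a description. Chgb was nearest to Eif4b, Lmna and Chga (r = 0.91, 0.91 and 0.88), and Chga to Lmna, Dusp18 and Chgb (0.91, 0.90 and 0.88). Sst was nearest to Hspb6 (0.94), Hsp25-ps1 (0.92) and Nptx2 (0.92), of which Hspb6 is a small heat shock protein of muscle. Gcg was nearest to Hk2, Pign and Rprd2 (0.86, 0.85 and 0.84), Pyy to Zfp239, Decr2 and Phyh (0.95, 0.94 and 0.93), and Nts to Pigc, Selenoi and Lrrc19 (0.98, 0.97 and 0.97). For Sct they were Tbx3, Lmbr1l and Slc25a37 (0.97, 0.96 and 0.94), for Gip Ccl19, Ptpn22 and Cd37 (0.93, 0.86 and 0.85), for Cck B3gnt5, Pbdc1 and Twistnb (0.83, 0.83 and 0.81), and for Tph1 Hsd3b2, Igkv13-85 and 9130017K11Rik (0.82, 0.80 and 0.80). Ccl19, Ptpn22 and Cd37, nearest to Gip, are genes of lymphoid tissue.

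Other genes of the enteroendocrine pathway were read from 6 lists, of which 49 genes passed the filter. The only call among them was Tas1r3 itself between the genotypes on the WD. On the WD, 5 of the 49 had an unadjusted p under 0.05 in Tas1r3+/+ mice (10.2%, against 15.5% of all genes). In Tas1r3-/- mice 0 of 49 had one, against 5.49% of all genes. The genotypes had 1 of 49 on the ND, Tas1r3 itself (2.04%, against 4.73% of all genes). On the WD they had 2 of 49, Tas1r3 and Ghrl (4.08%, against 2.65%).

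Among the other gut hormones and peptides, 5 of 10 were tested. Fgf15, the enterocyte hormone that restrains bile acid synthesis, ran from 0 to 98.3. Penk, Tac1 and Grp, neuropeptide genes, had means of 8.58, 8.02 and 2.94. Ghrl, the ghrelin gene, had WD means of 1.47 ± 0.427 (SD, n = 4) with Tas1r3 and 0.383 ± 0.400 (SD, n = 3) without it, a log2 fold change of -1.24 (limma unadjusted p = 0.0181, adjusted p = 1.00). For the WD in Tas1r3+/+ mice the largest log2 fold changes were those of Tac1 (0.80) and Penk (0.43), and between the genotypes on the ND those of Fgf15 (-2.68) and Grp (0.47). For the WD in Tas1r3-/- mice they were those of Fgf15 (2.24) and Ghrl (-0.99). Fgf15 had an SD larger than its mean in 3 of the 4 groups.

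All 15 genes of granules and prohormone processing were tested and none had an unadjusted p under 0.05 in any of the 4 comparisons. Cpe, which trims prohormones after their cleavage, was the most abundant (mean 53.1, range 19.4 to 131), followed by the amidating enzyme Pam (31.2), the granin Scg2 (16.2) and the vesicle protein Syp (5.19). Pcsk1, the convertase that cuts proglucagon to glucagon-like peptides in L cells, had WD means of 3.84 ± 1.28 (SD, n = 4) with Tas1r3 and 2.60 ± 0.0687 (SD, n = 3) without it. The median log2 fold change of the list was 0.39 for the WD in Tas1r3+/+ mice and -0.01 between the genotypes on the WD, beside 0.02 and -0.01 over all genes. Pcsk1n and Scg5 had the largest log2 fold changes for the WD in Tas1r3+/+ mice (1.01 and 0.99), Scg3 and Scg5 for the WD in Tas1r3-/- mice (0.91 and 0.65), Cadps and Pcsk1n between the genotypes on the ND (0.89 and 0.72), and Rimbp2 and Pcsk1 on the WD (-0.55 and -0.43). Cpe, Scg2, Syp and most other genes of this list are also expressed by neurons, whose summed markers had group means of 70.6 (ND-fed Tas1r3+/+), 98.0 (ND-fed Tas1r3-/-), 151 (WD-fed Tas1r3+/+) and 128 (WD-fed Tas1r3-/-), and their part in these values was not tested.

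Of the serotonin handling genes, 6 of 9 were tested and none had an unadjusted p under 0.05. The degrading enzyme Maoa (mean 45.7), the reuptake transporter Slc6a4 (13.3), the decarboxylase Ddc (9.56) and Gch1 (4.89), which makes the cofactor of Tph1, were the most abundant. Slc6a4 had log2 fold changes of -0.65 for the WD in Tas1r3+/+ mice and -0.74 between the genotypes on the ND. Slc18a2, which loads serotonin into vesicles, had 0.61 for the WD in both genotypes, and Maoa and Ddc had -0.68 and -0.58 between the genotypes on the WD.

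Of the transcription factors of the enteroendocrine lineage, 8 of 20 were tested. The most abundant were Foxa1 (7.47), Sox4 (5.07), Etv1 (2.17) and Foxa2 (1.59), and Neurog3, which commits progenitors to the lineage, had a mean of 1.07. Hhex, a factor of D cells, had a mean of 0.852 ± 0.455 (SD, n = 4) on the ND and of 1.88 ± 0.473 (SD, n = 4) on the WD in Tas1r3+/+ libraries (log2 fold change 0.86, limma unadjusted p = 0.00750, adjusted p = 0.173), and its log2 fold change in Tas1r3-/- mice was 0.55. Neurog3 had -0.66 between the genotypes on the ND and -0.41 on the WD, with limma unadjusted p of 0.0864 and 0.214. Sox4 on the ND and Foxa2 on the WD went the other way, with 0.45 and 0.46 (limma unadjusted p of 0.297 and 0.271). Etv1 had 0.72 for the WD in Tas1r3+/+ mice and 0.52 in Tas1r3-/- mice. Between the genotypes the list had a median log2 fold change of 0.12 on the ND and 0.00 on the WD. Over all genes the medians were 0.01 and -0.01.

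Among the nutrient sensors, 7 of 14 were tested. Slc5a1, the sodium-glucose cotransporter, had a mean of 157 and is also abundant in enterocytes. The short-chain fatty acid receptor Ffar2 had a mean of 5.05 ± 0.662 (SD, n = 4) on the ND and of 3.03 ± 0.340 (SD, n = 4) on the WD in Tas1r3+/+ libraries (log2 fold change -0.65, limma unadjusted p = 0.00870, adjusted p = 0.178). The long-chain fatty acid receptor Ffar4 was at 7.49 ± 1.96 and 5.17 ± 1.09 in the same groups (-0.48, unadjusted p = 0.0396, adjusted p = 0.296 in limma), and between the genotypes on the WD it had a log2 fold change of 0.49 (unadjusted p = 0.0520 in limma). For the WD in Tas1r3-/- mice the largest were Slc5a1 (0.56) and Ffar3 (0.49). Tas1r3 was at 1.74 ± 0.242 in ND-fed and 5.53 ± 1.03 in WD-fed Tas1r3+/+ libraries, a log2 fold change of 1.42 with a limma adjusted p of 0.0304, and 3 of these 8 values carried the extended digits described above.

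Of the receptors and enzymes that receive or end the signal, 8 of 20 were tested. Dpp4, the brush-border peptidase that inactivates glucagon-like peptide 1, had a mean of 124.8 and ran from 19.0 to 263. The peptidase Mme followed with 11.2, the receptor of glucagon-like peptide 2, Glp2r, with 3.11 and the serotonin receptor subunit Htr3a with 2.91. Glp2r had a mean of 1.98 ± 0.345 (SD, n = 4) on the ND and of 4.43 ± 1.93 (SD, n = 4) on the WD in Tas1r3+/+ libraries (log2 fold change 0.93, limma unadjusted p = 0.0164, adjusted p = 0.225). Dpp4 had a log2 fold change of -1.30 between the genotypes on the ND (limma unadjusted p = 0.110).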

How the data were processed

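The authors mapped Ion Proton reads to GRCm38 with STAR in Partek Flow and deposited RPKM per Ensembl transcript, so no counts were used. RPKM were summed per gene, and 98.2% of transcripts matched GENCODE M21. Genes reaching an RPKM of 1 in 2 or more of 13 libraries were tested after scaling by a trimmed mean of log ratios (30% of ratios and 5% of levels trimmed at each end). Values of log2(scaled RPKM + 0.5), a scale that understates changes of low genes, entered limma (version 3.58.1, R 4.3.3), using 1 model for all 4 groups and the trend option. A call required a 2-fold difference together with an adjusted p (Benjamini-Hochberg) below 0.01. Two-sided exact permutation tests used the same values (scipy, Python 3.11.15). The fit was tested on simulated data. The p-values measure the spread between libraries. Library totals differed between the diets, so the library total behind the RPKM is uncertain. Named genes are the members and, per list, the 4 most abundant, those with the largest fold changes and any with an unadjusted p under 0.05. The members and lists were chosen with earlier results of these data known. Alternatives changed scaling, pseudocount, filter, covariates, samples, transcripts and call rule. Promoters came from RefSeq (GRCm38.p6), 250 bases before to 50 after each start.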

Additional observations from a re-analysis of the deposited data

Results flagged for a closer look

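Pyy in ND-fed Tas1r3+/+ female 1, at 22.3 scaled RPKM, lay apart from the other 3 libraries of its group: its gap to the nearest was 0.886 of the whole range on the log2 scale, above Dixon's 95% critical value for 4 samples. This was the only one among 20 groups of 4 values examined, where chance alone gives about 1 in 20. The same library had the highest summed smooth muscle markers of its group (2582 against 836 to 1278), and the part of tissue content in this value was not tested. The diet effect on Gcg in Tas1r3-/- mice minus that in Tas1r3+/+ mice was -1.38 on the log2 scale, singled out because the unadjusted p of the interaction term was 0.0218 in limma. It failed the correction over all genes (adjusted p = 1.00), and the direction was the same in 14 of 14 other settings and with each of the 13 libraries left out.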

How the results depend on the processing

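No member was called under any setting that kept the adjusted threshold. When calls needed a 2-fold difference and only an unadjusted p below 0.01, there was 1 member for the WD in Tas1r3+/+ mice and 1 between the genotypes on the WD, beside 268 and 57 of all 19042 genes; at an unadjusted p under 0.05 there were 1 for the WD in each genotype, 2 between the genotypes on the WD and 1 for the interaction. The rule of 0.05 was added after the values had been seen. The sex comparison had 2 to 4 members with each library left out in turn. Gcg kept its direction and an unadjusted p under 0.05 between the genotypes on the WD in 15 of 15 alternatives (-1.37 to -1.10) and 13 of 13 leave-outs (-1.48 to -0.98), and for the WD in Tas1r3+/+ mice likewise (0.59 to 1.48 and 0.77 to 1.28). Cck between the genotypes on the WD did so in 12 of 14 and 11 of 13, and for the WD in Tas1r3-/- mice in 13 of 14 and 12 of 13. These counts are not independent checks. The alternatives refit largely the same libraries, and many leave-outs dropped a library outside the 2 groups compared. In such leave-outs Gcg stayed at 1.04 for the WD in Tas1r3+/+ mice and at -1.24 to -1.255 between the genotypes on the WD.

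Without scaling the median log2 fold change of all genes was -0.38 (WD in Tas1r3+/+), -0.35 (WD in Tas1r3-/-), -0.14 (genotypes, ND) and -0.12 (genotypes, WD), instead of 0.02, 0.00, 0.01 and -0.01, and 539 genes instead of 1 were called for the WD in Tas1r3+/+ mice, 8 of them higher. Over the other settings that kept the call rule, including left-out libraries, 0 to 33 genes were called there, 0 to 16 for the WD in Tas1r3-/- mice, 0 to 1 between the genotypes on the ND and 0 to 6 on the WD. Changes of sign concerned uncalled values. Without scaling they were Pyy -0.13, Nts -0.0100 and Tph1 -0.26 for the WD in Tas1r3+/+ mice, Sst -0.33 in Tas1r3-/- mice, Gcg -0.041 (ND) and Sst -0.074 (WD) between the genotypes. With males only they were Pyy -0.13 and Tph1 -0.21 (WD, Tas1r3+/+), and Gcg -0.12 and Gip 1.19 (genotypes, ND). The highest transcript per gene gave Sct 0.023 (WD, Tas1r3+/+) and Cck -0.33 (genotypes, ND). All 16 columns gave Sct 0.11 and Sst -0.10 (WD, Tas1r3-/-) and Sst -0.045 (genotypes, WD); both female columns of WD-fed Tas1r3-/- mice as libraries gave Sct 0.039 and Sst -0.047 (WD, Tas1r3-/-) and Gip -0.061 and Sst -0.075 (genotypes, WD). Sex as a covariate gave Chga 0.043 and Chgb 0.054 (WD, Tas1r3-/-) and Gip 0.60 (genotypes, ND), where a pseudocount of 0.1 gave Gip 0.44 and a fit of the 2 groups alone 0.0022. The causes were not tested.

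With a library left out, sign changes lay within these ranges: Tph1 -0.21 to 0.26 (WD, Tas1r3+/+); Pyy -0.057 to 0.91, Sct -0.86 to 0.18, Sst -0.36 to 0.50 and Chgb -0.52 to 0.038 (WD, Tas1r3-/-). Between the genotypes on the ND they were Gcg -0.11 to 0.35, Pyy -0.90 to 0.072, Cck -0.13 to 0.83, Gip -0.50 to 0.48 and Chgb -0.46 to 0.11, and on the WD Pyy -0.69 to 0.045, Sct -1.05 to 0.010, Sst -0.12 to 0.29, Tph1 -0.16 to 0.034 and Chgb -0.39 to 0.11.

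The replicate numbers were not taken as pairs, since not every same-numbered pair of Tas1r3+/+ libraries had r above 0.1: deviations from group means had r of -0.01 to 0.47 for equal and -0.37 to 0.28 for different numbers, and 3 of 4 correlated best with their own number. With the replicate block, Gcg was 1.04 (WD, Tas1r3+/+), -1.09 (genotypes, WD) and -1.22 (interaction), Cck was 1.31 (WD, Tas1r3-/-) and 1.08 (genotypes, WD), and the sign turned for Sst (-0.043) and Chgb (0.015) for the WD in Tas1r3-/- mice, and for Gip 0.62 (ND) and Sst -0.049 (WD) between the genotypes. Genes of few reads (Gip, Tph1 and Cck) limit what can be seen, as do the 2 libraries of ND-fed Tas1r3-/- mice.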
